A study of Mus musculus and Rattus norvegicus with 6 samples.

Results

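The striated muscle miRNAs are a small group of microRNAs named for their abundance in skeletal muscle and heart: miR-1, miR-133, miR-206, miR-208 and miR-499. They were taken here as every row of the deposited mouse and rat tables named for one of these, with any letter or arm. The rule found 18 of 1915 mouse names and 16 of 764 rat names, 34 of 2679 names in all. The counts come from small RNA libraries of dissected retina from wild-type C57BL/6 mice and wild-type Sprague Dawley rats, both 9 weeks old and with no treatment named in the labels, with 3 libraries per species (m1, m3 and m4, r1, r2 and r4). The labels do not say whether each library came from its own animal, so p-values reflect only how these libraries spread, in part perhaps technically. Species, strain and count table change together and cannot be told apart.

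MicroRNAs are short RNAs cut from the 5p or 3p side of a hairpin, and they lower the output of messenger RNAs that pair with their seed, bases 2 to 8. In striated muscle, miR-1 promotes differentiation and miR-133 restrains it, and both are cut from shared primary transcripts. The pair of miR-206 and miR-133b is a second such transcript, known from skeletal muscle. The miRNAs miR-208a, miR-208b and miR-499 lie inside myosin heavy chain genes and help to set the balance of fast and slow muscle genes. The retina is a neural tissue with no striated muscle of its own. Vessels run through it, and the muscles that move the eye attach to the outside of the globe.

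The mature sequences of 5 members are shown to make their kinship visible, with the seed in capitals; miR-1a-3p and miR-133a-3p are named only. They are the mouse sequences of RefSeq (GRCm38.p6), from which those of 11 of the 18 mouse names were taken.
miR-206-3p: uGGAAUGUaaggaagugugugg
miR-133b-3p: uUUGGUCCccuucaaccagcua
miR-499-5p: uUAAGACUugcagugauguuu
miR-208a-3p: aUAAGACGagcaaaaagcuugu
miR-208b-3p: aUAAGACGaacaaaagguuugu
The sequences of miR-208a-3p and miR-208b-3p share the whole seed and differ at 3 of 22 bases (G10A, A16G and C18U, miR-208a first, counted from the 5′ end). The sequence of miR-499-5p shares 6 of the 7 seed bases with both, differing at G8U. Of the 1679 mature mouse names compared, 3 hold the seed of miR-206-3p (itself, miR-6349 and miR-6382), 2 that of miR-208 and 1 that of miR-499-5p. Mature miR-1a-3p and miR-1b-3p were not among these names, so the count cannot show whether miR-1 shares the seed of miR-206-3p.

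The mouse annotation places these hairpins as follows. Mir206 (chr1:20679010-20679082, plus strand) and Mir133b (chr1:20682769-20682887, plus strand) lie 3686 bases apart within the long non-coding RNA gene Gm28653, Mir206 in an intron and Mir133b over an exon. Mir1a-1 (chr2:180389048-180389124) and Mir133a-2 (chr2:180398379-180398482) lie 9254 bases apart. Mir499 (chr2:155622880-155622958, plus strand) is in an intron of Myh7b. Mir208a (chr14:54949060-54949142, minus strand) is in an intron of Myh6 and Mir208b (chr14:54975700-54975776, minus strand) in an intron of Myh7, which are cardiac myosin heavy chain genes.

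The hairpins of miR-206 and miR-499 show which side was read, with the abundant arm in capitals.
Mir206: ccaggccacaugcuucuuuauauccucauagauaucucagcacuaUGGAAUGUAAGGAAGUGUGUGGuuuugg
Mir499: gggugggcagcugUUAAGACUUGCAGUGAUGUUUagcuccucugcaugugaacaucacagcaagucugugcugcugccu
For miR-206, the 3p arm had 1535 counts over the mouse libraries and 2270 over the rat libraries, while the 5p arm had 0 in each. With 0 of 1535 and 0 of 2270 counts, the share of the 5p arm is at most 0.240% in mouse and 0.162% in rat (exact binomial 95% limits, counting error only). For miR-499, the side reversed: the 5p arm had 7921 counts in mouse and 23628 in rat, and the 3p arm had 1 and 13. For miR-133a, the 3p arm had 363 counts in mouse and 187 in rat, and the 5p arm had 29 and 15. The minor 5p share of miR-133a was thus 7.40% in mouse (95% exact binomial interval 5.01 to 10.5) and 7.43% in rat (4.22 to 11.95). The 2 hairpins with both arms counted in both species were compared by their arm ratio in an exact permutation test over libraries (two-sided), in which 3 against 3 cannot reach below 0.10. The p was 0.7 for miR-133a and 0.3 for miR-499.

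Libraries held 24169628 to 30514632 counts. The tables were joined by name, the only renamed member being miR-1, which is listed as miR-1a-3p in mouse and miR-1-3p in rat. Levels below are counts scaled to a common total of the joined names with factors from the trimmed mean of M values (TMM), written CPM. Rat library r1 stood apart in names of different kinds. An abundant miRNA of lens and cornea, miR-184, was at 16126 CPM in r1, 1695 in r2 and 1132 in r4. The mouse libraries held it at 448 to 1836 CPM. The other lens and cornea name read, miR-205-5p, was instead lowest in r1 among the rat libraries (8.12, 11.6 and 16.8 CPM in r1, r2 and r4). Photoreceptor miR-182 was at 502007, 192786 and 222310 CPM in r1, r2 and r4. The neural retina was present in every library, with miR-124-3p at 10817 CPM or more and miR-9-5p at 73208 CPM or more.

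Muscle miRNAs were a small part of both retinas. In mouse they held 0.0865% ± 0.0121 of everything counted, and in rat 0.0663% ± 0.00639 (SD, 3 libraries each). Most names were near or at 0: of the mouse names 7 had no count in any library and 5 had at least 10 in every library, and of the rat names the numbers were 5 and 5. Fewer cells holding these miRNAs and less RNA per cell cannot be told apart in whole tissue.

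The most abundant member in mouse was miR-1a-3p (mmu-miR-1a-3p in the table), the main product of both miR-1a hairpins. It had 23902 counts in m1, 23497 in m3 and 17541 in m4, or 1265, 1120 and 807 CPM. It ranked 59, 61 and 67 among the 1915 mouse names. Its levels lay far above those of every other member, and m4 was the lowest of the 3 libraries.

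In rat the counts of miR-1 stood under a pair of names. The name miR-1-3p had 910, 558 and 397 counts in r1, r2 and r4, and the name miR-1b, listed without an arm, had 8541, 7024 and 8074. In CPM, rat miR-1b was at 608, 267 and 290, and rat miR-1-3p at 64.8, 21.2 and 14.2. Of the rat counts under both names, 90.4% in r1, 92.6% in r2 and 95.3% in r4 stood under miR-1b. In mouse the order was the other way round, with 9, 11 and 7 counts under miR-1b-3p, at most 0.0468% of the sum with miR-1a-3p. Mouse miR-1b is annotated in RefSeq as antisense to a miR-1a hairpin. Which reads each table puts under these names was not tested, and the sequence behind the rat name was not used here.

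The miRNA miR-499-5p (mmu-miR-499-5p), which in muscle accompanies slow myosin, was second to miR-1a-3p in every mouse library. In rat it was second to miR-1b in r1 and the most abundant member in r2 and r4. It had 2435, 2922 and 2564 counts in m1, m3 and m4, and 4062, 9102 and 10464 in r1, r2 and r4. In CPM these were 129, 139 and 118 in mouse and 289, 346 and 376 in rat. On this scale the lowest rat library was more than 2 times the highest mouse library. Per whole-table total, the lowest rat library, r1, was at 168 CPM and the highest mouse library, m3, at 95.8 CPM. By rank, miR-499-5p stood at 151 to 153 among the mouse names and 94 to 115 among the 764 rat names.

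The skeletal muscle miRNA miR-206-3p (mmu-miR-206-3p) had 538, 548 and 449 counts in mouse and 680, 825 and 765 in rat. In CPM it was at 28.5, 26.1 and 20.7 in mouse and at 48.4, 31.4 and 27.5 in rat. On this scale the species overlapped, since r4 lay below m1, and r1 was the highest. Per whole-table total they did not overlap, with 15.9 to 19.3 CPM in mouse and 27.1 to 32.6 CPM in rat, where r2 was the highest.

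The miR-133 members were rare. The 3p arm of miR-133a (mmu-miR-133a-3p) had 137, 132 and 94 counts in mouse and 27, 74 and 86 in rat, or 7.25, 6.29 and 4.33 CPM against 1.92, 2.82 and 3.09 CPM. All mouse libraries were above all rat libraries, and r1 was the lowest. The 3p arm of miR-133b (mmu-miR-133b-3p) had 16, 17 and 12 counts in mouse and 7, 9 and 9 in rat, or 0.847, 0.811 and 0.552 CPM against 0.499, 0.342 and 0.323 CPM. Again the mouse libraries were all higher, although the count of 7 in r1 has an exact Poisson 95% interval of 2.81 to 14.4 and that of 12 in m4 one of 6.20 to 21.0. The 5p arm of miR-133b and miR-133c had 0 counts in every library of both species. Mature miR-133a and miR-133b are near-identical, so counts may be divided between their names, and the summed value is given below.

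The heart miRNA miR-208a-3p (mmu-miR-208a-3p) had 0 counts in each mouse library and 8, 21 and 12 in rat, or 0.570, 0.799 and 0.431 CPM. The floor of 3 counts used for a count of 0 is 0.138 to 0.159 CPM in a mouse library. The rat mean was 0.600 CPM ± 0.186 (SD, n = 3). No fold is read from a member with 0 counts in every mouse library. Its neighbour miR-208b-3p, made within the slow myosin gene Myh7, had 0, 0 and 1 counts in mouse and 0, 3 and 2 in rat. The remaining arms were at or below 3 counts in every library, apart from mouse miR-133a-5p (11, 10 and 8), rat miR-133a-5p (3, 4 and 8), mouse miR-1b-3p (above) and rat miR-499-3p (2, 6 and 5).

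**Figure D1:**
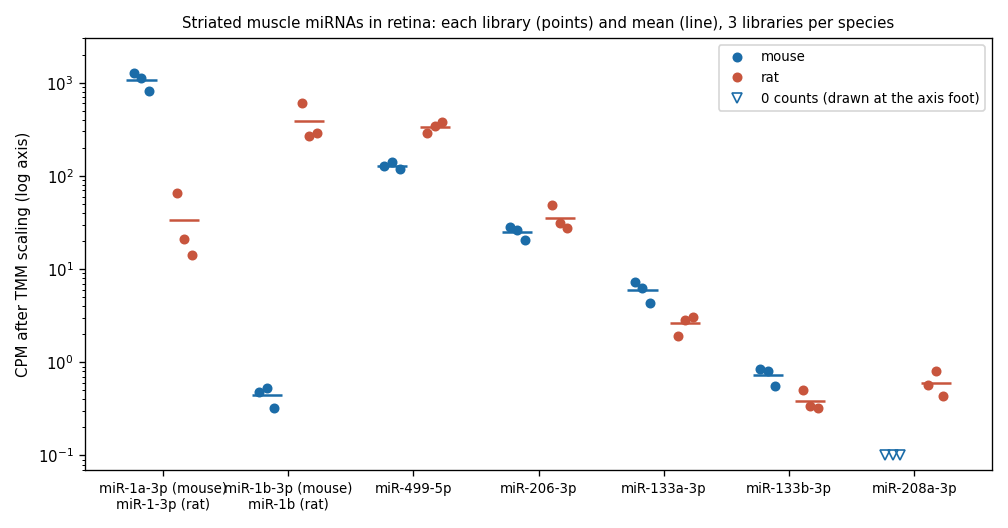
Level of each abundant muscle miRNA in CPM after TMM scaling (log axis) in every mouse (blue) and rat (red) library, with the mean as a line; triangles mark 0 counts. Mouse miR-1a-3p lies at 807 to 1265 CPM, while rat miR-1-3p lies at 14.2 to 64.8 CPM and rat miR-1b at 267 to 608 CPM.

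Ranked by level, the mouse order was miR-1a-3p, miR-499-5p, miR-206-3p, miR-133a-3p and miR-133b-3p, and no neighbours in it overlapped between libraries. In rat the order of means was miR-1b, miR-499-5p, miR-206-3p, miR-1-3p, miR-133a-3p, miR-208a-3p and miR-133b-3p. There miR-1b and miR-499-5p overlapped, as did miR-206-3p and miR-1-3p, and miR-208a-3p and miR-133b-3p. Mature miRNAs are read whole, so no length correction was made. A ratio of counts of different miRNAs compares reads and not molecules.

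The make-up of the muscle counts differed between the species. All miR-1 names together held a share of 86.6% ± 1.76 among mouse muscle counts and of 50.7% ± 13.6 among those of rat (SD over 3 libraries). For miR-499-5p the shares were 10.7% ± 1.70 and 44.3% ± 13.7. For miR-206-3p they were 2.06% ± 0.0978 and 4.44% ± 0.504. In r2 and r4 miR-499-5p was the largest with 51.6% and 52.8%, while in r1 the miR-1 names held 66.4%. These shares do not depend on scaling between the tables, but each one depends on the others.

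**Figure D2:**
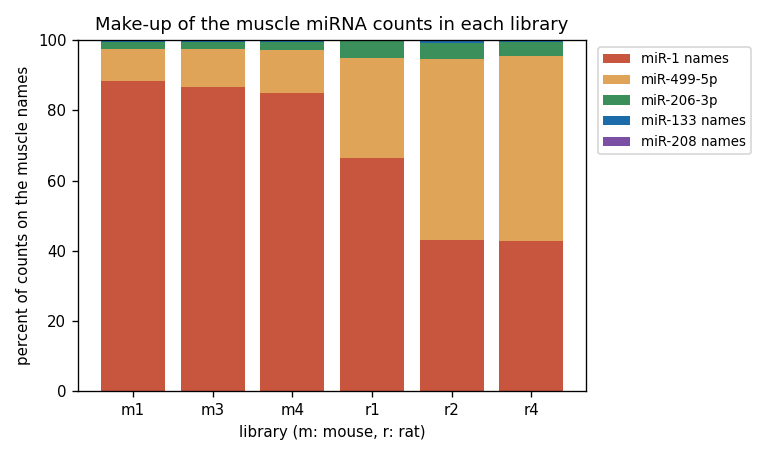
Percent of the counts on muscle names held by each family in each library (stacked bars). The miR-1 names hold 84.9% to 88.4% in the mouse libraries and 42.7% to 66.4% in the rat libraries; the miR-133 and miR-208 names are too rare to see.

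The question of how the retinas of the species compare was addressed with edgeR's quasi-likelihood test on all joined names, with p-values adjusted by Benjamini and Hochberg. Of 427 names tested, 50.4% were called at an adjusted p under 0.05, 24.1% higher and 26.2% lower in rat, and 59.7% had no overlap between the species' libraries. Of the 14 joined muscle pairs, 6 passed the filter on low counts. One of them, miR-208a-3p, passed through the rat libraries alone, so its call as higher in rat is no result. Of the other 5, 1 was higher in rat (miR-499-5p), 3 were lower (miR-1, miR-133a-3p and miR-133b-3p) and miR-206-3p was not called, and in 4 the libraries did not overlap. Their median difference was -0.97 on the log2 scale, against 0.03 over all names tested. With so few members, nothing particular to them is read from these counts.

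Of the members, miR-499-5p was higher in rat: its mean was 337 CPM ± 43.9 against 129 CPM ± 10.7 (SD over 3 libraries). The log2 difference was 1.39 ± 0.16 (SE; edgeR adjusted p = 0.000168). All rat libraries were above all mouse libraries. Scaled by joined totals without TMM, the difference was 1.77.

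The 3p arm of miR-133a fell from a mouse mean of 5.96 CPM ± 1.49 to a rat mean of 2.61 CPM ± 0.609 (SD over 3 libraries), by -1.17 ± 0.28 on the log2 scale (edgeR adjusted p = 0.00800). That of miR-133b fell from 0.737 CPM ± 0.161 to 0.388 CPM ± 0.0962 (log2 difference -0.97 ± 0.34, edgeR adjusted p = 0.0444). Neither fall was called with joined totals and no TMM (-0.77, adjusted p = 0.127, and -0.61, adjusted p = 0.141). The call of miR-133b-3p was also lost with DESeq2 (adjusted p = 0.0974) and without m1, m3, r2 or r4 (edgeR adjusted p from 0.120 to 0.154). Summed, miR-133a-3p and miR-133b-3p gave a difference of -1.14 ± 0.25 (edgeR adjusted p = 0.00628).

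For miR-206-3p the mouse mean was 25.1 CPM ± 4.01 and the rat mean 35.8 CPM ± 11.1 (SD over 3 libraries), and the log2 difference of 0.51 ± 0.25 was not called (edgeR adjusted p = 0.120). With joined totals and no TMM it was called (0.80, adjusted p = 0.00987). That scaling moved the median of all names by 0.35 on the log2 scale and made 73.4% of the calls higher in rat, against 47.9% with TMM. Without r1 the difference of miR-206-3p was 0.25.

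For miR-1, the difference depended on the name. Mouse miR-1a-3p at 1064 CPM ± 234 against rat miR-1-3p at 33.4 CPM ± 27.4 (SD over 3 libraries) gave a log2 difference of -5.003 ± 0.58 (edgeR adjusted p = 0.000202), and -5.89 without r1. A comparison added after the data were seen summed mouse miR-1a-3p with miR-1b-3p, and rat miR-1-3p with miR-1b. The difference was then -1.34 ± 0.34 (edgeR adjusted p = 0.0118), and -1.82 ± 0.13 without r1. With the few 5p counts of mouse included, the summed level was 1266, 1121 and 807 CPM in the mouse libraries. In the rat libraries it was 673, 288 and 304 CPM. All mouse libraries lay above all rat libraries either way, and the size of the difference changed with whether the counts under rat miR-1b were included. Set against rat miR-1b alone, mouse miR-1a-3p gave a difference of -1.46 ± 0.33 (edgeR adjusted p = 0.00678).

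**Figure D3:**
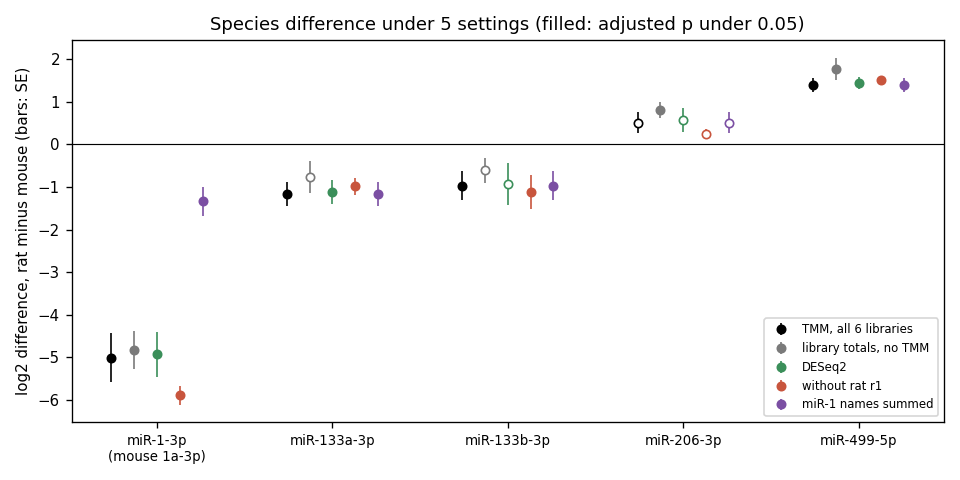
Log2 difference, rat minus mouse, of 5 muscle miRNAs under 5 settings, with SE bars; filled points have an adjusted p under 0.05. The miR-1 difference is -5.003 with rat miR-1-3p and -1.34 with the miR-1 names summed, and miR-499-5p is above 0 in each setting shown.

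Ratios inside a library need no scaling between tables, and 4 were compared between species by an exact permutation test (two-sided), in which 3 against 3 libraries cannot give a p below 0.10. The members of the miR-1 and miR-133a transcripts were counted very unequally. In mouse, miR-1a-3p had 174, 177 and 186 times the counts of miR-133a-3p in m1, m3 and m4. In rat, miR-1-3p had 33.1, 7.50 and 4.60 times those of miR-133a-3p in r1, r2 and r4. The mean log2 ratio was 7.48 ± 0.05 for mouse and 3.39 ± 1.48 for rat (SD over 3 libraries), with no overlap (difference -4.10, exact permutation p = 0.10, adjusted p = 0.133).

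With miR-1 names summed, the rat ratios to miR-133a-3p were 344 in r1, 102 in r2 and 97.9 in r4. That of r1 lay above all mouse ratios, and those of r2 and r4 lay below all of them. The mean log2 ratios of 7.48 in mouse and 7.24 in rat differed by -0.25 (exact permutation p = 1). This closeness of the means rests on r1, and leaving out a library was not run for the summed names. The mouse libraries agreed closely, with an SD of 0.05, while r1 stood above r2 and r4: it held more miR-1 and less miR-133a than the other rat libraries. The same library had the higher miR-184 given above, whose part in this was not tested.

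In the second transcript, miR-206-3p had 32.6, 31.3 and 36.0 times the counts of miR-133b-3p in m1, m3 and m4, and 90.7, 86.9 and 80.6 times in r1, r2 and r4. The mean log2 ratio was 5.06 ± 0.10 for mouse and 6.43 ± 0.09 for rat (SD over 3 libraries), a difference of 1.37 with no overlap (exact permutation p = 0.10, adjusted p = 0.133). Here r1 did not stand apart, although the miR-133b counts are few. The ratio of miR-133a-3p to miR-133b-3p was 7.56 to 8.33 in mouse and 3.67, 7.84 and 9.11 in r1, r2 and r4, and it overlapped (difference -0.29, exact permutation p = 0.9, adjusted p = 0.9). That of miR-1 to miR-206-3p was 39.0 to 44.4 in mouse and 0.519 to 1.34 in rat with rat miR-1-3p, or 9.19 to 13.9 with the miR-1 names summed. It did not overlap in either case (differences -5.76 and -1.91, exact permutation p = 0.10 each).

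**Figure D4:**
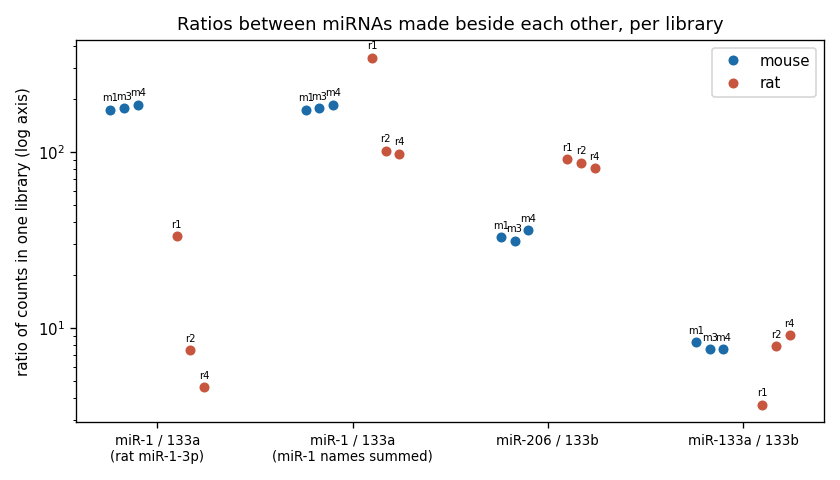
Ratio of counts inside each library (log axis) for miR-1 to miR-133a with rat miR-1-3p and with the miR-1 names summed, miR-206 to miR-133b, and miR-133a to miR-133b, each point labelled with its library. The summed miR-1 ratio spans 97.9 to 344 in rat, with r1 above and r2 and r4 below the mouse range of 174 to 186. The miR-206 ratio does not overlap between species.

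Set beside miR-1, miR-499-5p had 0.102 to 0.146 times the counts of the summed miR-1 names in the mouse libraries. In rat the ratio was 0.430 in r1, 1.20 in r2 and 1.24 in r4. The groups did not overlap (log2 difference 2.81, exact permutation p = 0.10); this ratio was added after the data were seen.

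Other miRNAs common in muscle, or in the muscle cells of vessels, were read beside these. Of 3 tested muscle-enriched names, 0 were called by edgeR's test at an adjusted p under 0.05, where 50.4% of all 427 names were. With DESeq2 it was also 0, where 226 of 427 names were called. An unadjusted p under 0.05 was found for 1 of the 3 in each test. The most abundant was miR-378a-3p at 5849 to 6709 CPM in mouse and 19296, 6921 and 8046 CPM in r1, r2 and r4. Its log2 difference was 0.84 ± 0.36 (edgeR adjusted p = 0.0867). Without r1, miR-378a-3p was called higher in rat (0.24) and miR-22-3p lower (-0.25), where 313 of 442 names were called. Of 4 tested smooth muscle and pericyte names, 2 were higher in rat, where 24.1% of all names were: miR-143-3p (0.87 ± 0.29, edgeR adjusted p = 0.0347; 0.46 without r1) and miR-145a-5p (0.70 ± 0.17, edgeR adjusted p = 0.00876). The first was at 11129 CPM in r1, 5074 in r2 and 5917 in r4. The other names were not called: miR-143-5p (0.60 ± 0.24, edgeR adjusted p = 0.0684) and miR-145a-3p (-0.05 ± 0.19, edgeR adjusted p = 0.835). With r1 left out, 3 of the 4 were higher, as were 35.5% of all names. Their summed level ran from 3822 to 4565 CPM in mouse and from 5172 to 11207 CPM in rat. The part of these names in the muscle results was not tested. Endothelial miR-126a-3p differed by -0.19 ± 0.15 and was not called (edgeR adjusted p = 0.322). Without r1 it was called lower in rat (-0.21, edgeR adjusted p = 0.0268), as were 156 of the 442 names tested. The other endothelial name, miR-126a-5p, was not called with r1 (-0.13 ± 0.29, edgeR adjusted p = 0.748). Nor was it called without r1, where its difference had the other sign (0.17, edgeR adjusted p = 0.107).

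The names whose level most resembled miR-1 (mouse 1a-3p, rat 1-3p) over the 6 libraries, by Pearson r of log2(CPM + 1) among 286 other names with a mean of at least 10 CPM, were miR-370-3p, miR-212-5p, miR-149-5p, miR-128-3p and miR-1843b-5p, with r from 0.995 to 0.997. For miR-133a-3p they were miR-210-3p, miR-15b-5p, miR-199a-5p, miR-30d-3p and miR-26b-5p, with r from 0.977 to 0.999. Among the members, r with miR-1 was 0.82 for miR-133a-3p, 0.93 for miR-133b-3p and -0.44 for miR-206-3p. It was -0.98 for miR-499-5p and -0.92 for miR-208a-3p, which had 0 counts in every mouse library. These values describe 6 libraries that share 2 tables and carry the species difference.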

How the data were processed

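Per the labels' protocols, total RNA with miRNA was isolated from dissected retina and Illumina libraries were sequenced single-end for 50 bases; the protocol text speaks of rat eyes under every sample, mouse included. The deposited values are raw, unnormalized counts for each mature name, 1 table a species. For aligner, annotation and the handling of reads that match several names, the method is not given in the sources used here. Columns carry the species but not the labels' replicate numbers.

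Names were joined after removing the species prefix: 542 exact names plus 43 pairs that differ by the letter a. edgeR 4.0.16 in R 4.3.3 was used with filterByExpr, TMM and the quasi-likelihood F test, species being the only term. The SE is the size of the log2 difference divided by the square root of F. Ratios used a pseudocount of 0.5. DESeq2 1.42.0 was an alternative. The test was checked on simulated counts. Poisson and binomial limits and the floor of 3 counts cover counting error only, since PCR copies are not independent. Every member was named or counted by rule, with up to 4 names of each comparison list. The members and lists were chosen with earlier results of these data known. Sequences are of RefSeq, GRCm38.p6, and host genes of GENCODE M21 on the same assembly.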

Additional observations from a re-analysis of the deposited data

Results flagged for a closer look

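Member names outside the test between species held counts above the floor of 3 in every library in 3 cases. Rat miR-1b, with no mouse partner of the same name, had a mean of 388 CPM ± 191 (SD, n = 3), with 608 CPM in r1, 267 in r2 and 290 in r4. This mean was the highest of the rat muscle names, but in r2 and r4 miR-499-5p lay above it. Mouse miR-1b-3p had a mean of 0.441 CPM ± 0.106 (SD, n = 3), and mouse miR-133a-5p, which did not pass the filter on low counts, 0.476 CPM ± 0.107 (SD, n = 3).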

How the results depend on the processing

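The number of muscle miRNAs called, miR-208a-3p included, was 5 of 6 tested. It was 3 of 5 with totals of the whole tables and no TMM, where 161 of 424 names were called. There miR-208a-3p was not tested, and miR-133a-3p and miR-133b-3p were no longer called (edgeR adjusted p = 0.148 and 0.147). In that setting miR-206-3p was called (edgeR adjusted p = 0.0313). With exact names only it was 3 of 5, where 199 of 398 names were called. Then miR-1 could not be tested and miR-133b-3p was not called (edgeR adjusted p = 0.0580). When 1 library was left out, 4 to 5 muscle miRNAs of 6 tested were called. Over all names, 215 of 427 were called, and 171 of 438 (without m1) to 313 of 442 (without r1) when 1 library was left out. Wider names paired rat miR-1b with mouse miR-1b-3p, a log2 difference of 9.74 on 9, 11 and 7 mouse counts. With CPM of the whole tables, the summed muscle level was 865 in mouse, against 1226 with TMM, a change fixed by the larger totals. Without r1, the difference in the log2 ratio of miR-133a to miR-133b turned from -0.29 to 0.11, and that in the arm ratio of miR-133a from -0.11 to 0.13. With a pseudocount of 5 the arm difference of miR-499 turned from 1.16 to -0.68, the 3p counts being 0 or 1 in mouse. Leaving out 1 library gave ratio differences from -4.93 to -3.51 (miR-1 to miR-133a) and -6.15 to -5.46 (miR-1 to miR-206). Both ranges use rat miR-1-3p without miR-1b. With the miR-1 names summed and all libraries kept, these differences were -0.25 and -1.91. The other ratio differences ran from 1.33 to 1.43 (miR-206 to miR-133b) and -0.54 to 0.11 (miR-133a to miR-133b). Arm differences ran from -0.41 to 0.13 (miR-133a) and 0.82 to 1.75 (miR-499). With 1 library left out, miR-1, miR-133a-3p and miR-499-5p kept their calls and miR-206-3p was not called. The call of miR-208a-3p, which passed the filter through the rat libraries alone, is no result in these runs either. No paired analysis was possible, since the groups are different species and no mouse library has a rat partner. Low counts limit miR-133b, miR-208a and the minor arms.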

Other observations

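The muscle and blood miRNA miR-486 could not be joined by name. In mouse, miR-486a-5p was at 133.1 CPM ± 2.63 and miR-486b-5p at 139 CPM ± 2.98, and in rat the single name miR-486 was at 274 CPM ± 8.90 (SD, n = 3 each). How reads divide between the mouse names was not tested, so no species difference is read from these values. The red blood miRNA miR-451a was at 15.1 CPM ± 2.83 in mouse, and miR-451-5p in rat was at 2.13 CPM ± 1.17 (SD, n = 3 each).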
